A study of Aspergillus nidulans with 4 samples.

Results

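Genes of the carbon catabolite repression machinery of *Aspergillus nidulans* were chosen by identifier under the names *creA* (AN6195), *creB* (AN3959), *creC* (AN6566), *creD* (AN4170) and *snfA* (AN7695). They are 5 of the 10930 genes in the deposited expression table. The annotation did not bear out all of these names. AN3959 is described there as a predicted metallopeptidase with a role in proteolysis. AN6566 is described as a calcium-dependent serine/threonine protein phosphatase, and RefSeq gives it the symbol *cnaB*. Both of these are therefore called by their identifiers below, and their values are not read as those of *creB* or *creC*. RefSeq gives the symbol *creB* to AN3587, whose text in the table is a ubiquitin processing protease involved in catabolite repression. AN4166 is the only other gene, apart from *creA*, whose text names catabolite repression, and it has no symbol there. AN3587 and AN4166 are reported beside the 5 genes. The text of AN4170 (an arrestin domain protein with a PY motif) and of AN7695 (a putative protein kinase) does not go against the names *creD* and *snfA*.

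Carbon catabolite repression keeps genes for the use of poorer carbon sources off while glucose is present. In *A. nidulans* the zinc finger protein CreA binds promoters of such genes and represses them. CreB is a deubiquitinating enzyme that works with the WD40 repeat protein CreC, and CreD is an arrestin-like protein thought to act with a HECT ubiquitin ligase. SnfA is named for the yeast kinase Snf1, which in *Saccharomyces cerevisiae* relieves repression when glucose runs out. Protein kinase A, the cyclic AMP-dependent kinase whose catalytic subunit is encoded by *pkaA*, is a main carrier of the glucose signal in fungi.

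RNA-seq compared a strain with a deletion of *pkaA* (Δ*pkaA*, labelled AN1358) with its parental strain (the WT, labelled AN1405), with 2 samples of each, 4 in all. Both were grown as mycelium at 28°C and 250 rpm in liquid medium with 2% glucose and 0.5% yeast extract, for 12 h at pH 3.3 as a seed culture and for about 20 h in the main culture. Each genotype was 1 strain, and only the glucose medium was sampled, so no derepressed state is included. The labels do not say that the 2 samples of a strain came from separate cultures, so p-values measure the spread between these samples, which may be technical.

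The deposited values are mean normalized counts per strain, that is, a gene's reads scaled by library size and averaged over both libraries. Summed over genes, they come to 29312151 for Δ*pkaA* and 31012501 for the WT. Reads per library were worked out from the decimals of these means. They are called libraries a and b within each strain, since they could not be matched to the labelled samples. The deleted gene behaved as labelled, with 79 and 69 reads on *pkaA* (AN6305) in Δ*pkaA* libraries, against 1892 and 1851 in WT libraries. Of 6 conidiation markers none was at 0, and in the limma fit described below 2 were higher in Δ*pkaA*, 3 were lower and 1 did not pass, where 64.3% of all fitted genes passed. The higher ones were *wetA*, with a mean of 94.1 in Δ*pkaA* against 54.8 in the WT, and *yA*, with 208 in Δ*pkaA* against 120 in the WT. The lower ones, *abaA*, *wA* and *rodA*, were past 2-fold, as were 32.7% of all genes with an average of 10 or more. The 6 summed to 683 in Δ*pkaA* against 1676 in the WT, a gap mostly from *abaA*, with 134 in Δ*pkaA* against 951 in the WT. The one that did not pass, *brlA*, the central regulator of conidiation, had means of 69.5 in Δ*pkaA* against 67.2 in the WT. Of the hyphal housekeeping genes, *actA* (actin) had 80798 in Δ*pkaA* against 94807 in the WT. There *gpdA* (glyceraldehyde-3-phosphate dehydrogenase) had 85955 in Δ*pkaA* against 70060 in the WT, and *benA* (tubulin) 33252 in Δ*pkaA* against 23721 in the WT. The part of these markers in the results below was not tested.

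The arrestin-like gene *creD* and the repressor gene *creA* were lower in the Δ*pkaA* strain, 6.55-fold and 3.62-fold by their means. The other 3 of the 5 genes lay inside the 2-fold window, with log2 ratios of the Δ*pkaA* mean over the WT mean between -0.32 and 0.07. *creB* (AN3587) lay on the other side, 2.15-fold higher in the Δ*pkaA* strain, and AN4166 was 1.49-fold higher. Means differing at least 2-fold were common: among the 9455 genes averaging at least 10, 3090 (32.7%) did so, with 16.3% higher and 16.4% lower in Δ*pkaA*. Of the 5 chosen genes, 2 passed that limit, and AN3959 and AN6566, not read as *creB* or *creC*, were among the other 3. Among the genes kept under their names, *creA*, *creD* and *creB* (AN3587) passed it and *snfA* did not. So few genes give no share to set against this background. Among the 7837 genes that could be fitted with limma, 64.3% passed an adjusted p of 0.05 (32.0% higher and 32.4% lower in Δ*pkaA*). Of the 4 fitted genes of the 5, *creD* passed, and *snfA*, AN6566 and AN3959 did not. *creA* is not among the 4, since its reads per library were not settled, and its possible pairs are given below. AN3587 and AN4166, outside the 5, both passed. Whether fewer cells carried a transcript or each cell held less of it cannot be told apart in RNA from whole mycelium.

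**Figure D1:**
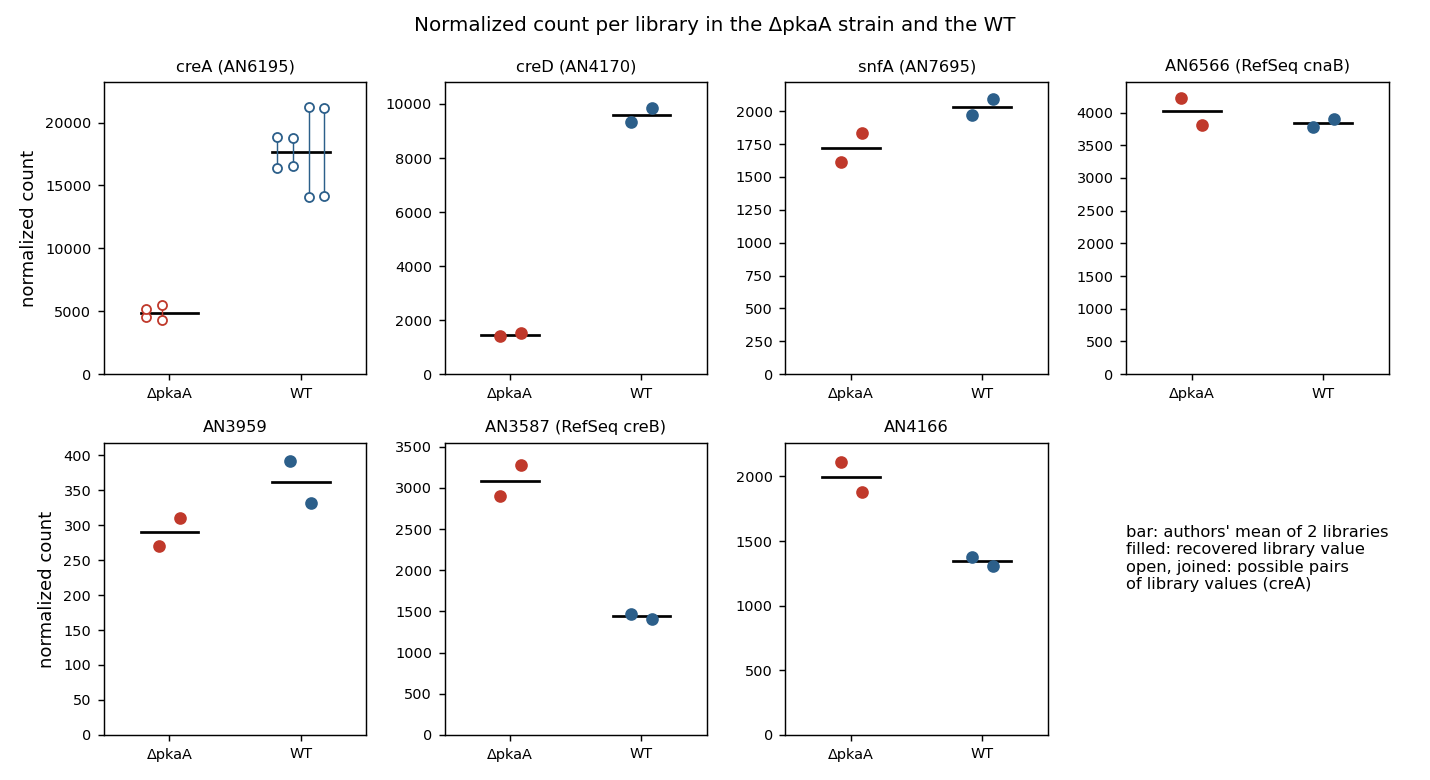
Normalized count (y axis, from 0, a scale of its own in each panel) of the 5 chosen genes, AN3587 and AN4166 in Δ*pkaA* libraries (red) and WT libraries (blue); black bars are the authors' means, filled points are library values worked out from them, and open joined points in the *creA* panel are the possible pairs of library values. The strains overlap only for AN6566, and *creD* lies at 1397 and 1534 in Δ*pkaA* libraries against 9345 and 9864 in WT libraries.

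*creD* (AN4170) showed the largest difference of the 5. It lies on chromosome II in RefSeq, and the authors' table places it at positions 1877849 to 1881046 on the minus strand; the same sources were used for the genes that follow. Its normalized counts were 1397 and 1534 in Δ*pkaA* libraries (1425 and 1507 reads), against 9345 and 9864 in WT libraries (9762 and 9474 reads). The strains were far apart. The libraries within each differed little, but these reads were chosen among possible pairs in a way that favours close ones. The spreads given here may therefore be too small. The strain means were 1466 ± 97.0 in Δ*pkaA* against 9605 ± 367 in the WT (SD, n = 2 each). The log2 fold change was -2.71 (SE 0.0866, 95% interval -2.92 to -2.51, limma adjusted p = 1.45e-06). Of the 9455 genes described above, 90.3% had a smaller change in either direction. For the WT libraries another pair of reads had a probability of 1.52%, and with it the log2 fold change was -2.66 (limma adjusted p = 7.99e-05).

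*creA* (AN6195, chromosome I, positions 966596 to 968656 on the plus strand) had a mean of 4880 in Δ*pkaA* against 17652 in the WT, for a log2 ratio of -1.86. Its reads per library could not be settled, because at these levels several pairs of whole numbers give the same mean. In the Δ*pkaA* strain the more probable pair was 4567 and 5192 normalized counts (79.5%), and the other was 5468 and 4291 (20.0%). In the WT the pairs were 18881 and 16422 (48.2%), 16516 and 18788 (44.1%), 21247 and 14057 (3.95%), and 14150 and 21154 (3.66%). Under each of these the strains did not overlap. Put into the limma fit in turn, the 8 combinations gave log2 fold changes between -1.83 and -1.86 and adjusted p-values between 6.77e-06 and 2.03e-04. All of them give the same strain means, so the fold changes could hardly differ, and only the spread between libraries was varied. This check was chosen after the data were seen, and the most probable combination gave -1.85 (SE 0.0952, limma adjusted p = 7.47e-06).

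*snfA* (AN7695, chromosome IV, positions 2402253 to 2404505 on the minus strand) had 1614 and 1835 normalized counts in Δ*pkaA* libraries, against 1973 and 2091 in WT libraries. Both Δ*pkaA* libraries were below both WT libraries, but the gap between the strains was small. The means were 1724 ± 156 in Δ*pkaA* against 2032 ± 83.2 in the WT (SD, n = 2 each). The log2 fold change of -0.24 (SE 0.105) did not pass the test (limma adjusted p = 0.0832), and the 95% interval of the ratio (Δ*pkaA* over WT) was 0.713 to 1.01. A difference of 2-fold lies outside that interval.

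AN6566, the gene with the phosphatase text (chromosome I, positions 2475864 to 2476975 on the minus strand), had 4228 and 3806 normalized counts in Δ*pkaA* libraries, against 3777 and 3897 in WT libraries, and the strains overlapped. The log2 fold change was 0.06 (SE 0.0861, limma adjusted p = 0.539), with a 95% interval of the ratio from 0.907 to 1.20. Its sign rested on 1 library: without Δ*pkaA* library a the log2 fold change was -0.01 (limma adjusted p = 0.94).

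AN3959, the gene with the metallopeptidase text (chromosome II, positions 2509982 to 2511836 on the minus strand), was the lowest of the 5. It had 270 and 311 normalized counts in Δ*pkaA* libraries (275 and 305 reads), against 391.5 and 332.1 in WT libraries (409 and 319 reads). The strains did not overlap, but the libraries differed by 0.20 on the log2 scale within Δ*pkaA* and by 0.24 within the WT, against 0.32 between the strain means. The log2 fold change of -0.32 (SE 0.158) did not pass the test (limma adjusted p = 0.119, 95% interval of the ratio 0.619 to 1.04). Without WT library b it was -0.44 and passed (limma adjusted p = 0.0353).

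*creB* (AN3587, chromosome II, positions 3679273 to 3682898 on the minus strand) had 2898 and 3283 normalized counts in Δ*pkaA* libraries, against 1467 and 1412 in WT libraries. Each Δ*pkaA* library was well above each WT library. The means were 3091 ± 272 in Δ*pkaA* against 1439 ± 38.7 in the WT (SD, n = 2 each). *creB* rose by a log2 fold change of 1.10 (SE 0.101, 95% interval 0.86 to 1.34, limma adjusted p = 9.59e-05). With the other possible reads for the Δ*pkaA* libraries, which had a probability of 1.00%, the value was 1.06 (limma adjusted p = 0.00318).

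AN4166 (chromosome II, positions 1897758 to 1900534 on the plus strand) had 2111 and 1883 normalized counts in Δ*pkaA* libraries, against 1377 and 1309 in WT libraries. The strains did not overlap. It rose by a log2 fold change of 0.57 (SE 0.105, 95% interval 0.32 to 0.82, limma adjusted p = 0.00267), less than the 2-fold limit. Of the 3 genes whose text names catabolite repression, AN3587 and AN4166 were thus higher in the Δ*pkaA* strain and *creA* was lower.

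**Figure D2:**
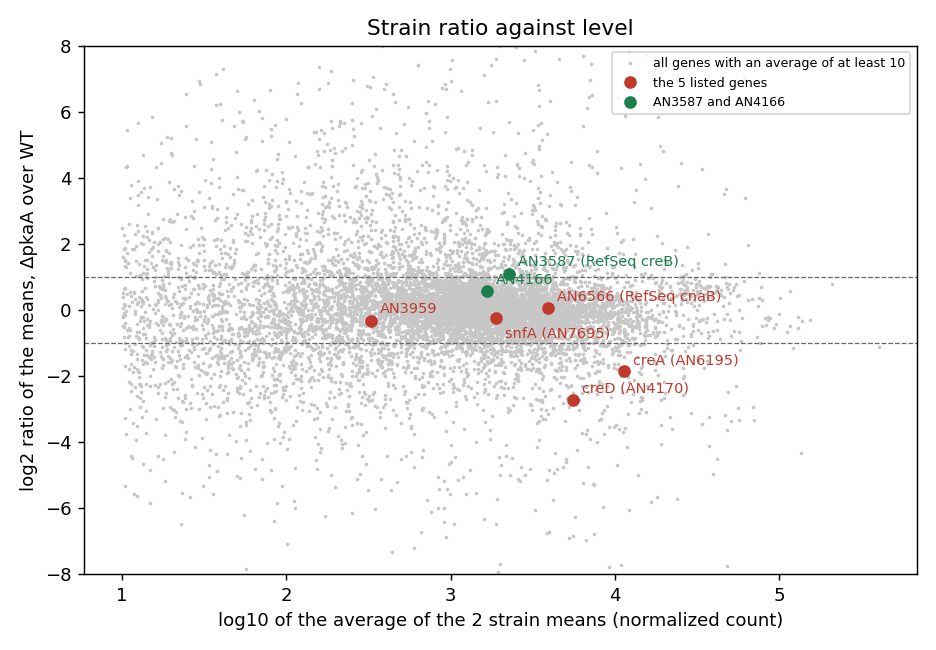
Log2 ratio of the Δ*pkaA* mean over the WT mean (y axis, limited to 8 in either direction) against the log10 average of both means (x axis, normalized count) for genes with an average of at least 10 (gray), with the 5 chosen genes in red and AN3587 and AN4166, whose text names catabolite repression, in green; dashed lines mark 2-fold. *creD* and *creA* lie below the lower line, AN3587 lies above the upper one, and the others lie between.

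The order of the transcripts by mean level also differed, taken without the spread between libraries. In Δ*pkaA*, *creB*, *snfA* and AN4166 lay close together, so their order there is not settled. Per kilobase of the gene's span in the authors' table, the mean normalized counts in the Δ*pkaA* strain were 3612 for AN6566, 2368 for *creA*, 852 for *creB*, 765 for *snfA*, 719 for AN4166, 458 for *creD* and 156 for AN3959. In the WT the order was *creA* at 8565, AN6566 at 3450, *creD* at 3003, *snfA* at 902, AN4166 at 484, *creB* at 397 and AN3959 at 195. *creD* was thus above only AN3959 in Δ*pkaA* and was the third highest of the 7 in the WT. The ratio of *creB* to *creA* per kilobase was 0.360 in Δ*pkaA* against 0.0463 in the WT. The ratio of *creB* to *creD* was 1.86 in Δ*pkaA* against 0.132 in the WT. The ratio of *snfA* to *creA* was 0.323 in Δ*pkaA* against 0.105 in the WT. These are ratios of transcript levels within a strain and say nothing of the proteins.

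Genes for possible partners of SnfA lay inside the 2-fold window, as did most of all genes. In yeast, the Snf1 kinase acts in a complex with a regulatory subunit and a scaffold subunit. AN10854, whose text gives AMP binding and activation of AMP-activated protein kinase, had means of 1255 in Δ*pkaA* against 1275 in the WT (log2 fold change -0.02, limma adjusted p = 0.887). AN6570, whose text gives a scaffold of that kinase, fell, with 1894 in Δ*pkaA* against 2397 in the WT (log2 fold change -0.34, SE 0.0914, limma adjusted p = 0.0144). Of both genes, 0 passed 2-fold, where 32.7% of all genes averaging at least 10 did, and they are too few to set against that share. The single gene whose text names a corepressor, AN12054, the ortholog of yeast Ssn6p, had 6981 in Δ*pkaA* against 7488 in the WT. Among 4 genes for protein kinases, a glucokinase and a phosphatase tied to repression, 0 passed 2-fold, again where 32.7% of all genes did. *schA* (a protein kinase) had 9681 in Δ*pkaA* against 10237 in the WT, and *glkA* (glucokinase) 6034 in Δ*pkaA* against 6335 in the WT. *stk22* had 6832 in Δ*pkaA* against 5510 in the WT, and *bimG* (a protein phosphatase) 8442 in Δ*pkaA* against 10889 in the WT. Reads of these 5 genes were not settled in every library, so they have no test.

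Genes for arrestins and HECT ubiquitin ligases, pooled in a single list, and for deubiquitinating enzymes were set beside *creD* and *creB*. Arrestins are the kind of protein CreD resembles, whereas HECT ligases are the kind it is thought to act with, so counts of that list cover both. Of 13 genes whose text names arrestins or HECT ubiquitin ligases, 12 had an average of at least 10, and 2 of these passed 2-fold, both lower in the Δ*pkaA* strain, where 16.4% of all genes were lower to that extent. One, the arrestin-like AN0056, had a mean of 2292 in Δ*pkaA* against 7011 in the WT (log2 fold change -1.62, SE 0.0995, limma adjusted p = 1.54e-05). The other, AN3265, carries the same text as *creD*, with homology to yeast Rod1p and Rog3p. It had 217 in Δ*pkaA* against 663 in the WT (log2 fold change -1.58, SE 0.205, limma adjusted p = 5.06e-04). The next lowest was the HECT ligase AN3999, with 2133 in Δ*pkaA* against 2698 in the WT (log2 ratio -0.34). The highest were the arrestin-like AN5453 (log2 ratio 0.38) and AN9105 (0.32) and the HECT ligase AN0444 (0.34). Of the 8 fitted, 2 rose, 3 fell and 3 did not pass (64.3% of all fitted genes passed), and the 12 had a median log2 ratio of -0.10, where that of the 9455 genes was -0.0004.

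Of 22 further genes whose text names deubiquitination, 21 had an average of at least 10, with a median log2 ratio of 0.03. Of the 21, 2 were past 2-fold, where 32.7% of all genes were. They were AN8074, a predicted ubiquitinyl hydrolase with 3250 in Δ*pkaA* against 7117 in the WT, and the low AN11218, with 16.4 in Δ*pkaA* against 8.04 in the WT, which did not pass the test (limma adjusted p = 0.079). Next lowest were AN5186 (log2 ratio -0.83) and AN6354 (-0.60). The highest with an average of at least 100 were AN10017 (0.65), AN6164 (0.43) and AN0927 (0.32), of which AN10017 is described as acting on such proteases rather than as one. Of the 15 fitted, 4 rose, 2 fell and 9 did not pass, where 64.3% of all fitted genes passed.

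**Figure D3:**
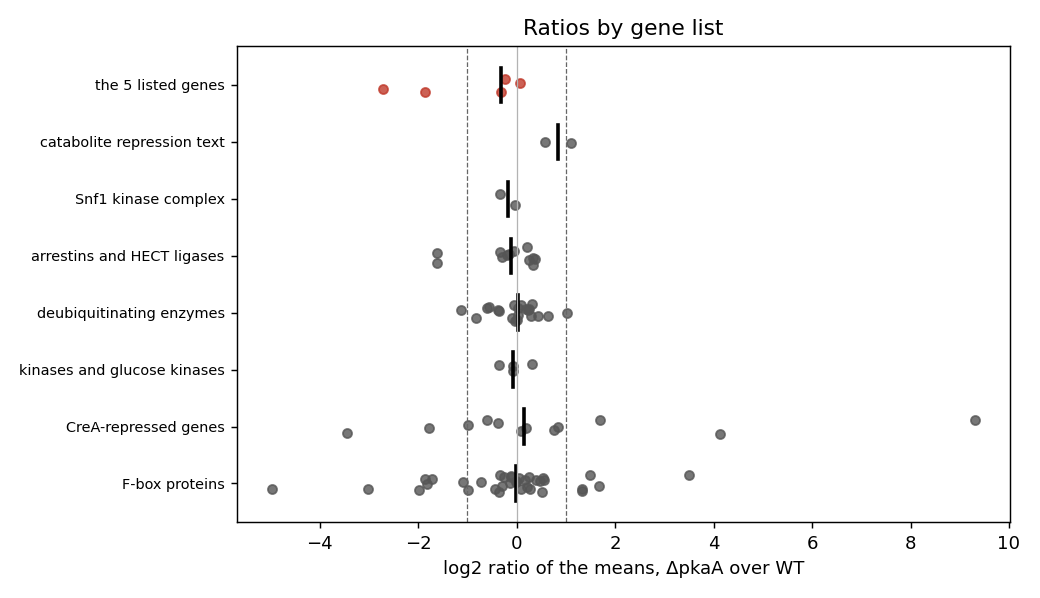
Log2 ratio of the Δ*pkaA* mean over the WT mean (x axis) of each gene with an average of at least 10 in the 5 chosen genes (red) and 7 gene lists (gray), with a black bar at each median; dashed lines mark 2-fold and points are spread vertically for sight only. Between the dashed lines lie 10 of 12 genes of the arrestin and HECT list, 19 of 21 of the deubiquitinating list, 7 of 12 CreA-repressed genes and 23 of 35 F-box genes, where 32.7% of all genes lie outside them.

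F-box proteins choose targets of SCF ubiquitin ligases. Of 36 such genes, 35 had an average of at least 10, of which 5 were at least 2-fold higher and 7 at least 2-fold lower in the Δ*pkaA* strain (34.3% in all), close to the 32.7% of all genes (16.3% higher and 16.4% lower). The highest was AN2353, with 780 in Δ*pkaA* against 68.9 in the WT (log2 ratio 3.50), followed by AN4535 (1.68) and AN2861 (1.49). The lowest was AN0307, with 17.4 in Δ*pkaA* against 541 in the WT (log2 ratio -4.96), followed by AN5509 (-3.01) and AN2029 (-1.98). The median of the 35 was -0.01.

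Of 13 classical CreA-repressed genes, 12 had an average of at least 10, of which 3 were at least 2-fold higher and 2 at least 2-fold lower in the Δ*pkaA* strain, where 16.3% of all genes were higher and 16.4% lower to that extent. The 3 that were at least 2-fold higher were all of the ethanol regulon. *alcA* (alcohol dehydrogenase) had 5054 reads over both Δ*pkaA* libraries and 8 over both WT libraries. By their means, *alcR* (its activator) had 904 in Δ*pkaA* against 51.5 in the WT, and *aldA* (aldehyde dehydrogenase) 16977 in Δ*pkaA* against 5284 in the WT. The lower ones were *acuD* (isocitrate lyase), with 564 in Δ*pkaA* against 6100 in the WT, and *xlnD* (beta-xylosidase), with 139 in Δ*pkaA* against 478 in the WT. Next lowest with an average of at least 100 was *amyR*, the activator of amylase genes (log2 ratio -0.60). Inside the 2-fold window, *xlnR* was higher (log2 fold change 0.75, limma adjusted p = 0.00181), as was *facA* (log2 ratio 0.84, no test). The low *xlnB* was lower there (log2 fold change -0.97, limma adjusted p = 0.0366). Of the 6 fitted, 3 rose and 3 fell, where 64.3% of all fitted genes passed. The gene left out, *xlnA*, is listed at 0 in Δ*pkaA* against 1.48 in the WT.

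Neighbours were sought only among genes matched to RefSeq, so genes without a match may lie nearer. None of the 7 genes overlapped its nearest matched neighbours in the authors' positions. Of the nearest neighbours of *creD*, AN4171 was also lower and AN10508 did not pass the test, where 32.4% of all fitted genes passed as lower. AN4171, 569 bases away on the same strand, had 2455 in Δ*pkaA* against 6778 in the WT (log2 fold change -1.46, limma adjusted p = 1.27e-05), and its text gives roles in TOR signaling and eisosome assembly. On the other side AN10508 had a log2 fold change of -0.25 (limma adjusted p = 0.0624). AN4166 lies close to *creD* in the gene order, with 4 genes between them, and went the other way. *creA* lay between AN6196 (391 in Δ*pkaA* against 1113 in the WT, limma adjusted p = 6.33e-05), which is 9811 bases off, and AN10788, which is 889 bases off and had 2320 in Δ*pkaA* against 2422 in the WT. Beside *creB*, AN3588 rose (log2 fold change 0.93, limma adjusted p = 3.23e-04), whereas AN3586 had a value of -0.02.

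The nearest neighbours of the remaining genes went in both directions. AN6565, next to AN6566, had 145 in Δ*pkaA* against 4994 in the WT (log2 ratio -5.11), and AN6567 on its other side had a log2 ratio of -0.19. Beside *snfA*, AN7697 had a log2 ratio of -0.11 and AN10984 is listed at 0 in Δ*pkaA* against 0.479 in the WT. Beside AN3959, AN3958 had a log2 ratio of 0.11 and AN3960 only 6.98 in Δ*pkaA* against 1.04 in the WT. Beside AN4166, AN4167 had a log2 ratio of -0.06 and AN4165 one of 0.65.

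**Figure D4:**
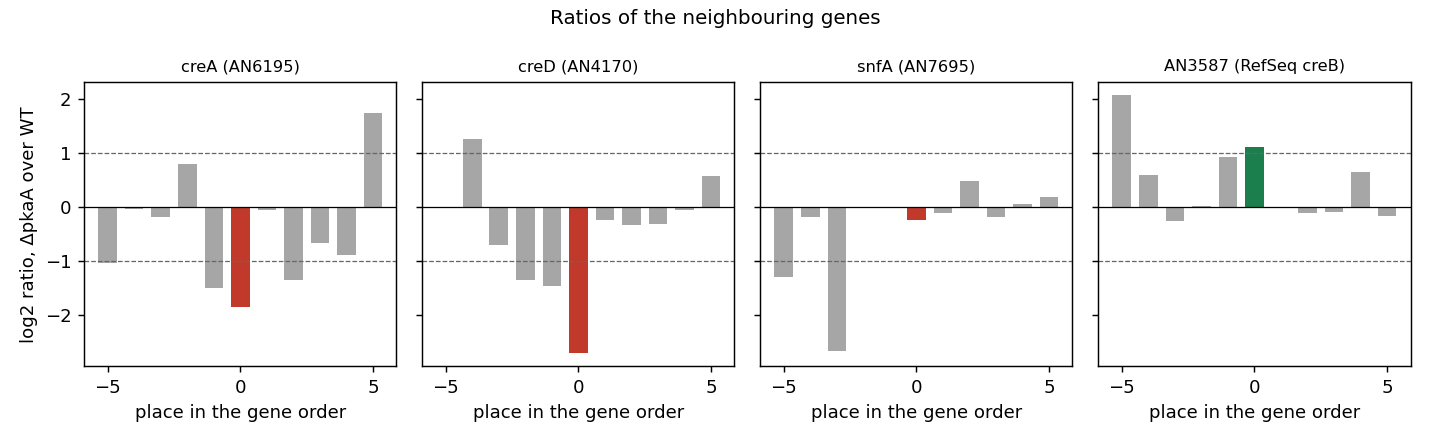
Log2 ratio of the Δ*pkaA* mean over the WT mean (y axis) for *creA*, *creD* and *snfA* (red), AN3587 (green) and up to 5 genes on either side (gray), by place in the reference gene order (x axis, the named gene at 0); genes with an average below 10 have no bar and dashed lines mark 2-fold. *creD*, at -2.71, is next to genes at -1.47 and -1.35 on one side and at -0.25 on the other.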

How the data were processed

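Reads of 100 bases were aligned by the authors to the AspGD genome (bowtie2), counted (HTSeq) and compared (DESeq), and neither versions nor build are given in the sources used here. The signal they deposited is a mean normalized count per gene and strain, beside their fold changes, p-values and q-values, which were not used. The strain of each column follows the study's supplement. A second table, which does not hold the Δ*pkaA* strain by its name, was not used.

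Reads per library were solved from the 4 decimals of each mean (tolerance 6e-05). A pair was kept when it was the only solution or, above a mean of 300, when its probability reached 95% under a t distribution fitted to library ratios, a level set after the values were seen. This recovered 86.0% of means above 0 of Δ*pkaA* and 93.1% of the WT. It favours pairs that lie close together, so spreads of high genes may be too small.

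The study's methods use a test on counts. The table used here holds means, so limma, with the variance moderated along a trend on the mean, took its place, on log2(value + 1) of the 7837 genes with 4 recovered libraries and an average of at least 10, with Benjamini-Hochberg adjustment. A fold change on this scale understates the change of low genes. The scripts were tested on simulated data. The genes and lists were chosen with earlier results of these data known. All genes of short lists are named, the 3 highest and 3 lowest (average of at least 100) of those with more than 12 genes, and nearest neighbours. Genes outside this rule, among them those past 2-fold, were named after their values were seen. Symbols, chromosomes and gene order came from RefSeq ASM1142v1. Its build differs, so its coordinates served only to order the genes, and positions and distances are the authors'. Of the identifiers, 9971 matched, all 5 chosen genes among them. The authors' positions carry no chromosome name. Alternatives covered scaling, pseudocounts, filters, fold limits, trend and each library left out. R 4.3.3 with limma 3.58.1 and Python 3.11.15 with SciPy 1.17.1 were used.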

Additional observations from a re-analysis of the deposited data

How the results depend on the processing

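In all, 94 alternatives were run on the 5 genes, AN3587 and AN4166, among them the count of the 5 past 1.5-fold. Pseudocounts hardly move means of this size, and rescaling shifts every ratio by the same small amount. Other read pairs share the strain means, so agreement among these settings was largely given beforehand. Of the 94, 92 kept the direction and the call. The exceptions were AN6566, which reversed to a log2 fold change of -0.0116 without Δ*pkaA* library a (range with each library left out -0.01 to 0.14), and AN3959, which passed at -0.44 without WT library b (range -0.20 to -0.44). Leaving out a library gave -2.64 to -2.78 for *creD*, -0.15 to -0.33 for *snfA*, 1.01 to 1.19 for *creB* (AN3587) and 0.49 to 0.65 for AN4166, with a lone library assumed to vary like the others. For *creA* no library could be left out, since its reads were not settled. The count of genes past 2-fold, 3090, was 4811 at 1.5-fold and 1445 at 4-fold (803 up and 642 down in Δ*pkaA*). The count passing limma, 5043, was 2606 of 3973 genes with reads of a single solution only (added after seeing the data), 2526 with a 2-fold limit as well, and 3813 to 5161 with each library left out. With only reads of a single solution, AN3959 alone of the 7 genes could be fitted. At 1.5-fold, 5 of 21 deubiquitinating genes and 9 of 12 CreA-repressed genes passed, where 4811 of all 9455 genes did. At 2-fold these counts were 2 of 21 and 5 of 12, where 3090 of 9455 passed. With an average of at least 100, 1 of 20 deubiquitinating genes passed 2-fold, where 2314 of 8161 genes did. No paired analysis was possible because the deposited columns carry no replicate numbers and the libraries worked out from them cannot be matched to the labelled samples. Depth limits AN11218 and *xlnA*, whose reads are few (33 and 0 over both libraries of Δ*pkaA*, 16 and 3 over those of the WT).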
